A study of Mus musculus with 12 samples.

Results

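The genes described here are surface markers by which the precursors of fat cells are recognised and sorted, together with Gata2, a transcription factor of the precursor state. They were taken as listed symbols: Pdgfra, Pdgfrb, Thy1, Cd34, Ly6a, Dpp4, Pi16, Icam1, Mme and Gata2. Of these 10 symbols, 9 had at least 1 probe set annotated with that symbol alone, 18 probe sets in all, out of 18193 genes named this way on the array. Ly6a, which encodes the stem cell antigen Sca-1, had no such probe set and is not analysed here. Expression was measured on 12 Affymetrix arrays, 3 for each of 4 groups of mouse cells. White preadipocytes were 3T3-L1 cells, an established line that turns into white-type fat cells, taken at day 0, which was 2 days after confluence. White adipocytes were the same line at day 10. They had received 3 days of dexamethasone at 1 µM together with IBMX at 0.5 mM and with insulin at 1 µg/mL, then insulin for 2 days, then plain medium. Brown preadipocytes were cells of a brown fat line at day 0, also 2 days past confluence, and brown adipocytes were that line at day 8. Their 3-day induction used T3, a thyroid hormone, at 1 nM, insulin at 20 nM, indomethacin at 125 µM, and the same doses of IBMX and dexamethasone, and insulin and T3 stayed until harvest. The origin of the brown line, and whether it is 1 clone, are not stated in the labels. The lines were also induced with different mixes, grown in different serum and harvested on different days. These cannot be told apart from the line in any contrast of brown with white adipocytes. The same holds for the difference between the lines' changes, which contains the adipocyte groups. Between preadipocytes, serum cannot be told apart from the line. Nothing in the labels says that the 3 arrays of a group came from separate cultures, so the p-values measure the spread between these samples, which may be technical.

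Fat cells arise from mesenchymal precursors that carry receptors of platelet-derived growth factor (PDGF) and lose much of their fibroblast character as they fill with lipid. In fat tissue these precursors have been divided into an interstitial class marked by Dpp4 and Pi16, a committed class marked by Icam1, and a class marked by tissue factor (F3, CD142) that restrains its neighbours. GATA2 is a zinc-finger protein of preadipocytes that holds back adipogenesis by acting on the Pparg promoter and by binding C/EBP proteins.

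Signals are linear intensities in arbitrary units, scaled to a common trimmed mean on each array. Changes are differences of log2(signal + 16), with the SE of a limma fit of 4 group means. A change is called when its Benjamini-Hochberg adjusted p over the 13752 genes tested is under 0.05. A signal is described as dim against the 40th percentile of its array, 32.9 to 41.2 over the arrays, which is not a detection limit. A gene was tested if it lay above this level on at least 3 of 12 arrays, and its brightest probe set stood for it. Where 1 of the groups compared is dim, the size of a log2 change depends on the 16 added to the signal. Of the 9 genes, 7 passed, and Pi16 and Icam1 did not. In whole cultures, fewer cells of a type and less RNA per cell cannot be told apart.

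Calls were common in these data, and their split into higher and lower moved with the scaling. Scaled to the hybridization controls, white differentiation had 2949 higher and 5645 lower genes against 4141 higher and 4286 lower as deposited, and brown differentiation had 2639 higher and 5629 lower against 3736 higher and 4342 lower. The same scaling gave 4899 higher and 3184 lower between adipocytes against 4140 higher and 4061 lower, and equal medians gave 2729 higher and 4952 lower between preadipocytes against 4307 higher and 3274 lower. Signal at the 3' end of the actin control divided by that at its 5' end was 1.36 to 1.46 in white and 1.43 to 1.56 in brown preadipocytes, and 2.08 to 2.35 in white and 2.39 to 2.48 in brown adipocytes. The same ratio of the Gapdh control was 0.834 to 0.899 and 0.750 to 0.808 in the preadipocytes, and 0.820 to 0.833 and 0.798 to 0.835 in the adipocytes, ranges that overlap between the brown groups and lie slightly lower after differentiation in white cells. The part of RNA quality in the falls below was not tested.

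The fit called 4 of the 7 tested progenitor genes in white differentiation, 1 higher and 3 lower, where 61.3% of all tested genes were called, 30.1% higher and 31.2% lower. In brown differentiation it called 6, 1 higher and 5 lower, beside 58.7% of all genes, 27.2% higher and 31.6% lower. The 7 had a median change of 0.19 (white) and −1.55 (brown), and over all tested genes it was 0.02 and −0.03. The groups were apart, with no shared range of arrays, for 4 members in white and 6 in brown differentiation, beside 66.1% and 65.2% of all genes. Pdgfrb, Thy1 and Gata2 fell in both lines, as did 18.0% of all tested genes. The change differed between lines for 3 of the 7 (Pdgfra, Pdgfrb and Cd34), each more negative in brown cells. Cd34 had passed the filter through its high group alone, and with the filter at the 60th percentile, where it is not tested, the count was 2. Over all genes that test called 51.1%, 23.6% with the higher and 27.5% with the lower change in brown cells. Cd34 is also among the 5 lower genes in brown differentiation, where the same high group makes the contrast. The count was 3 to 5 in white and 5 to 6 in brown differentiation over alternatives other than leaving out single arrays. The 1 higher gene in each line was Mme, which had passed the filter through brown arrays alone. Its white call, between dim signals, was lost in 14 of 28 alternatives.

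Between brown and white adipocytes 5 of the 7 were called, 1 higher and 4 lower in brown cells, beside 59.6% of all genes (30.1% higher and 29.5% lower). Between preadipocytes 6 were called, 3 higher and 3 lower in brown cells, beside 55.1% (31.3% higher and 23.8% lower). Among the higher genes, Mme in both contrasts and Cd34 between preadipocytes had passed the filter through brown arrays alone. Over alternatives other than leaving out single arrays, the counts were 4 to 5 between adipocytes and 4 to 6 between preadipocytes. The arrays did not overlap for 5 and 6 members, beside 65.6% and 62.0% of all genes. With so few members these shares show nothing particular to them, and the genes are described one by one.

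**Figure D1:**
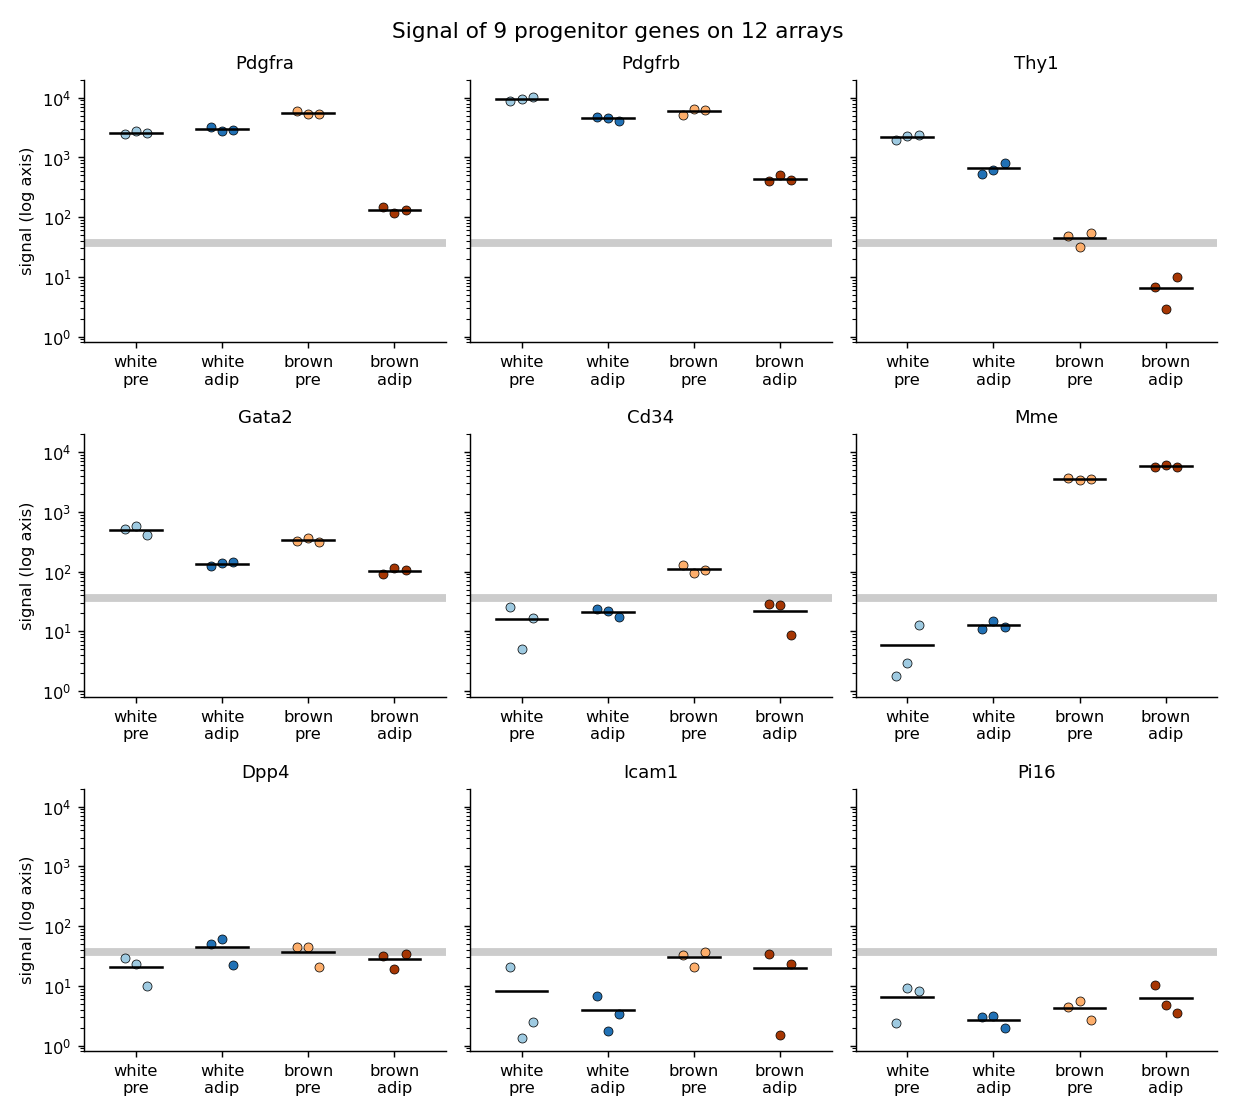
Signal of the 9 measured genes on a log axis, by group; points are single arrays, horizontal lines are group means of 3 arrays, and the grey band is the range of the arrays' 40th percentiles (32.9 to 41.2). Pdgfra and Pdgfrb are lowest in brown adipocytes, Thy1 is high in the white line, Mme is high in the brown line, and Dpp4, Icam1 and Pi16 lie near or below the band.

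Pdgfra (chr5:75151322-75198206, build GRCm38.p6 as for all positions here) encodes the PDGF receptor alpha, the marker most used to define adipocyte precursors. Its signals were 2458, 2733 and 2593 in white preadipocytes, 3265, 2737 and 2908 in white adipocytes, 5915, 5358 and 5270.4 in brown preadipocytes, and 147, 117 and 129.7 in brown adipocytes. Each brown adipocyte array lay far below the other 9 arrays, and the white groups lay side by side without overlap. In brown cells Pdgfra changed by −5.23 (SE 0.0964, adjusted p = 1.9e-10), which left 2.38% of the preadipocyte signal. In white cells the change was 0.19 (SE 0.0964, adjusted p = 0.113, 95% interval −0.02 to 0.41), with 114% of the signal left. The brown change minus the white one was −5.42 (SE 0.136, adjusted p = 2.73e-09). Brown preadipocytes lay above white ones by 1.08 (SE 0.0964, adjusted p = 6.18e-06), and brown adipocytes differed from white ones by −4.34 (SE 0.0964, adjusted p = 2.85e-10). By this brightest probe set the levels ran from brown preadipocytes through both white groups, which did not differ beyond the threshold, down to brown adipocytes.

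The 3 probe sets of Pdgfra differed in white cells. The second brightest gave 354, 396 and 424 in white preadipocytes and 171, 179 and 214 in white adipocytes. It was lower in adipocytes without overlap, with 48.1% of the signal left (SE 0.157, adjusted p = 0.000292 in a fit of probe sets). The third went from 148 ± 23.7 to 93.1 ± 36.5 (SD, n = 3), a change of −0.64 (SE 0.314, adjusted p = 0.113). The mean of the 3 sets changed by −0.48 (adjusted p = 0.00952). The direction in white cells therefore depends on the probe set. In brown cells the changes of the 3 sets were −5.23, −2.58 and −3.99 from the brightest to the third, each called, and for each the fall was larger in brown than in white cells by a called difference. Between preadipocytes the second set gave 0.03 (SE 0.157, adjusted p = 0.907) and the third 1.31 (SE 0.314, adjusted p = 0.00567).

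**Figure D2:**
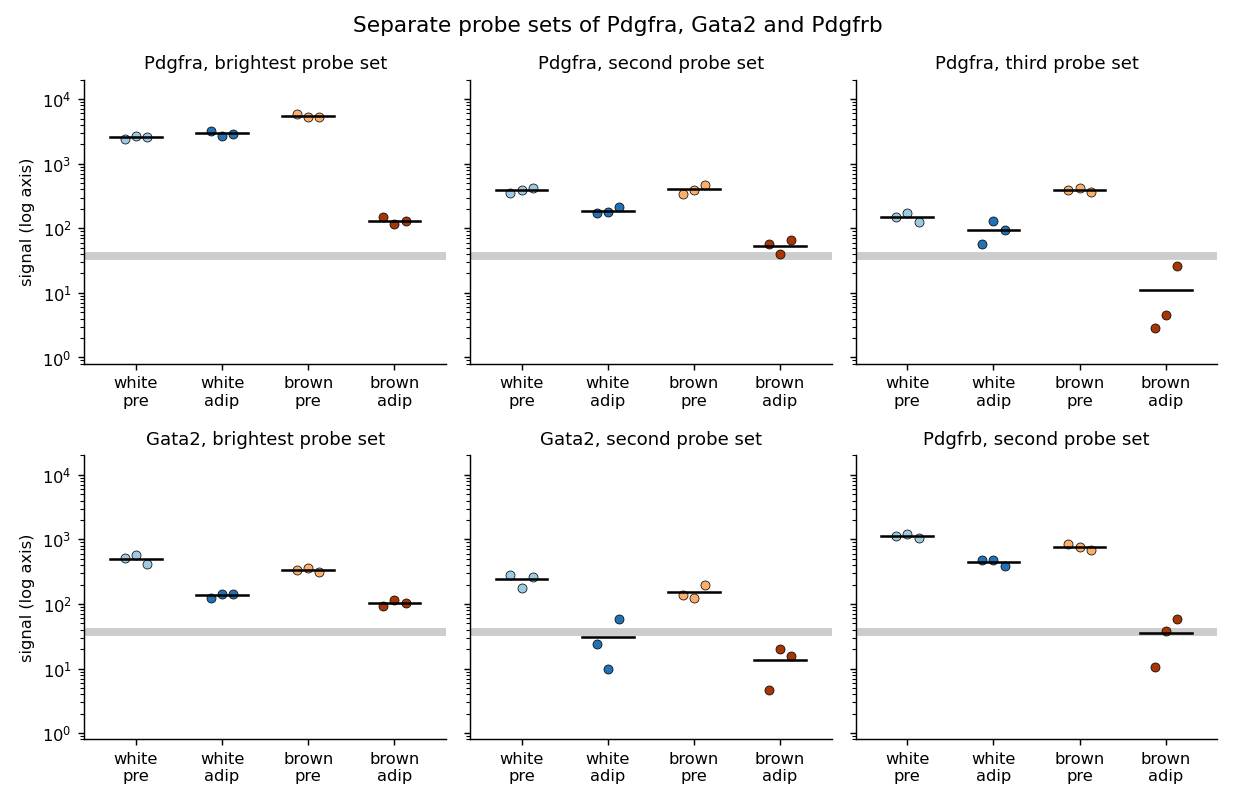
Signal of separate probe sets of Pdgfra (3), Gata2 (2) and the second one of Pdgfrb on a log axis, by group, with single arrays as points, group means of 3 arrays as lines and the range of the 40th percentiles as a grey band. In white cells the brightest Pdgfra set averages 2595 before and 2969.7 after differentiation while the second goes from 391 to 188, and in brown cells the 3 Pdgfra sets drop.

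Pdgfrb (chr18:61045127-61085067) encodes the PDGF receptor beta, found on fibroblasts and mural cells as well as on precursors. The signals were 8916, 9357 and 10409 in white preadipocytes, 4843, 4537 and 4134 in white adipocytes, 5205, 6405 and 6329 in brown preadipocytes, and 408, 499.5 and 426 in brown adipocytes. No groups overlapped, and the level was highest in white preadipocytes, then brown preadipocytes, then white adipocytes. Pdgfrb changed by −1.08 (SE 0.112, adjusted p = 1.12e-05) in white cells and by −3.70 (SE 0.112, adjusted p = 2.22e-09) in brown cells. This left 47.1% of the signal in white and 7.43% in brown cells. The brown change minus the white one was −2.62 (SE 0.158, adjusted p = 5.05e-07). A second probe set gave −1.32 and −4.03, and a difference of −2.72. Between adipocytes the lines differed by −3.30 (SE 0.112, adjusted p = 4.16e-09). Between preadipocytes the first set gave −0.68 (SE 0.112, adjusted p = 0.000485) and the second −0.56 (SE 0.297, adjusted p = 0.147), which was not called.

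The ligands of these receptors and the proteases that activate them were read next. Over all tested genes 30.1% were called higher and 31.2% lower in white differentiation, and 27.2% and 31.6% in brown. The counts of this and each later list stand beside these shares. As the lists were chosen with earlier results known, their counts are descriptions. Of 5 tested PDGF ligands and activating proteases, 0 rose, 4 fell and 1 did not pass in white cells, and 0 rose, 4 fell and 1 did not pass in brown cells, with medians of −1.88 and −1.07. The ligand gene Pdgfc went from 6319 ± 194 to 1407 ± 148 in white cells (−2.16, SE 0.100, adjusted p = 2.45e-08) and from 2385 ± 263 to 1123 ± 78.9 in brown cells (−1.07, SE 0.100, adjusted p = 6.35e-06). Pdgfa, a ligand of the alpha receptor, changed by −1.88 in white cells (SE 0.140, adjusted p = 8.84e-07). In brown cells it changed by −0.36 (adjusted p = 0.0493), a call lost with quantile normalization (adjusted p = 0.108) or equal medians (0.0786). For both ligands the white fall was the larger, by 1.52 for Pdgfa (SE 0.198, adjusted p = 0.000111) and 1.09 for Pdgfc (SE 0.142, adjusted p = 0.000114), whereas for the receptors the brown fall was. Plat, the tissue plasminogen activator that activates PDGF-C, changed by −2.70 in white and −3.70 in brown cells. Plau, the urokinase, changed by −1.54 and −2.78, to dim adipocyte means of 16.4 in white and 9.19 in brown cells. Pdgfb had mean signals of 28.1 to 57.3 and no call in either line, and Pdgfd was too dim to test. Of the related receptors Kit, Flt3 and Csf1r, the first 2 were too dim to test, and Csf1r was not called (adjusted p = 0.229 in white and 0.871 in brown cells).

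Thy1 (chr9:44043384-44048579) encodes CD90, a small glycoprotein tethered to the membrane by a lipid anchor and used to define mesenchymal stromal cells. Its signals were 1954, 2313 and 2419.5 in white preadipocytes, 536, 616 and 811 in white adipocytes, 47.7, 32.1 and 53.8 in brown preadipocytes, and 6.86, 2.91 and 9.84 in brown adipocytes. The 4 groups did not overlap, and the highest brown array lay below the lowest white one. Of the brown preadipocyte arrays 2 lay above the 40th percentile, and of the brown adipocyte arrays 0 did. Thy1 changed by −1.76 (SE 0.188, adjusted p = 1.44e-05) in white cells and by −1.42 (SE 0.188, adjusted p = 8.73e-05) in brown cells. The brown fall was called in each alternative, but its size ran from −2.68 to −0.62. It lay between signals near or below the 40th percentile. Brown differed from white by −5.22 (SE 0.188, adjusted p = 1.06e-08) in preadipocytes and by −4.89 (SE 0.188, adjusted p = 9.54e-09) in adipocytes. White adipocytes had at least 16.5-fold the signal of brown adipocytes, with each dim array set to its 40th percentile. The difference between the falls was 0.34 (SE 0.266, adjusted p = 0.324, 95% interval −0.26 to 0.93). It was 1.07 with a pseudocount of 64 (adjusted p = 0.000508) and −0.90 with 1, which was not called, so it has no settled direction.

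Gata2 (chr6:88193891-88207032) is the transcription factor among these genes. The 250 bases before its first annotated start are shown with those of Cd34 and Mme, because the 3 genes had different patterns: lower in both adipocytes, high in brown preadipocytes, and high in the brown line. Capitals mark GATA letters (AGATAA, or AGATAG, or TGATAA, or TGATAG) and the GC box (GGGCGG), both searched on either strand. The sequences are from RefSeq on build GRCm38.p6, plus strand, 5′ to 3′.
Gata2, chr6:88193641-88193890: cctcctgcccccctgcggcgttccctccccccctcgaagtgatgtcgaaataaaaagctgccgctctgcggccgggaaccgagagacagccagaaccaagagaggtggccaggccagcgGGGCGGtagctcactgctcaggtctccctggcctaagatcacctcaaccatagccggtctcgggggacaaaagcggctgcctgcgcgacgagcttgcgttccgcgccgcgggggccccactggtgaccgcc
Cd34, chr1:194938571-194938820: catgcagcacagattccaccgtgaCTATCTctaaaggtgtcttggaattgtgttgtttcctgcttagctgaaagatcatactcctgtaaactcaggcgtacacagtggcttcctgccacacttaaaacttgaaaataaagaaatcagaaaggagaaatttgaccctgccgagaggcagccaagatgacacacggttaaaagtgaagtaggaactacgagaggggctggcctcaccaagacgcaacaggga
Mme, chr3:63294961-63295210: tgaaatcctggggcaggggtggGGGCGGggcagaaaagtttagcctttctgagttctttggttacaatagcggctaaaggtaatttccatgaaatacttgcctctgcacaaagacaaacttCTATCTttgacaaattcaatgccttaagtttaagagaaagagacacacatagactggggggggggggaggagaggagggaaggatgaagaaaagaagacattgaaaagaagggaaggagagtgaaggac
Counted back from the start, the Cd34 stretch holds GATA letters at −226 and the Mme stretch at −129, with a GC box in Mme at −228. The Gata2 stretch holds a GC box at −131 and no GATA letters. Of 32851 RefSeq promoters of this length, 26.5% hold the GATA letters and 32.7% the GC box, so a match is a description and not a site of binding. Mme has 2 further annotated starts and Gata2 has 1, and the 250 bases before each of these hold GC boxes and no GATA letters. Promoter entries matched 7 of the 10 symbols.

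Gata2 signals were 509, 584 and 415 in white preadipocytes, 124, 141 and 144 in white adipocytes, 331, 365 and 308 in brown preadipocytes, and 92.8, 114 and 105 in brown adipocytes. Preadipocyte arrays of both lines lay above the adipocyte arrays of both lines, and no groups overlapped. Gata2 changed by −1.75 (SE 0.125, adjusted p = 6.31e-07) in white cells and by −1.55 (SE 0.125, adjusted p = 2.14e-06) in brown cells, which left 27.2% and 31.1% of the signal. These changes differed by 0.21 (SE 0.177, adjusted p = 0.362, 95% interval −0.19 to 0.60). A second probe set gave larger falls, −2.58 (SE 0.364, adjusted p = 0.000137) and −2.55 (SE 0.364, adjusted p = 0.000175). Brown preadipocytes differed from white ones by −0.55 (SE 0.125, adjusted p = 0.00347), which the second set did not call (−0.60, SE 0.364, adjusted p = 0.205). Between adipocytes the difference of −0.35 (SE 0.125, adjusted p = 0.0347) lost its call in 11 of 27 alternatives. Among them were leaving out white adipocyte replicate 2 (adjusted p = 0.0891) or 3 (0.0979) and brown adipocyte replicate 1 (0.119) or 3 (0.0683).

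Pparg, whose promoter GATA2 acts on, and the C/EBP genes Cebpa and Cebpb, whose proteins it binds, rose in both lines. Pparg went from 649.9 ± 27.6 to 8559 ± 357 in white cells and from 3188 ± 167 to 8998 ± 279 in brown cells. Cebpa stood at 50.7 ± 12.5 in white and 2917 ± 169 in brown preadipocytes and changed by 4.63 and 0.84, and Cebpb changed by 0.9968 and 1.88.

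Of 10 tested GATA factors and cofactors other than Gata2, 3 rose, 3 fell and 4 did not pass in white cells, and 0 rose, 6 fell and 4 did not pass in brown cells (medians 0.25 and −0.60). Gata3, the close relative that also restrains fat cell formation, went from 148 ± 26.6 to 64.6 ± 7.32 in white cells (−1.02, SE 0.264, adjusted p = 0.00668) and from 74.9 ± 23.9 to 9.51 ± 9.44 in brown cells (−1.86, SE 0.264, adjusted p = 0.000147). Gata6 fell in brown cells (−1.35, adjusted p = 1.44e-05). In white cells it was called higher (0.49, adjusted p = 0.0111), which was lost with equal medians (adjusted p = 0.0697) and hybridization-control scaling (0.220). Zfpm1 and Zfpm2 encode the FOG proteins that bind GATA factors. Zfpm1 changed by −1.55 in white and −0.55 in brown cells, and Zfpm2 by −1.10 and −2.17. Trps1, an atypical GATA repressor, rose in white cells (1.60, adjusted p = 3.6e-07) and fell in brown cells (−0.34, adjusted p = 0.0176). Lmo2, an adaptor of GATA complexes, was called higher in white cells (1.18) at a mean adipocyte signal of 37.7, inside the range of the 40th percentiles. Gata1, Gata4 and Gata5 had mean signals of 16.6 to 57.7 and no call in either line.

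Of 12 tested brakes on adipogenesis, a list that shares Gata3, 2 rose, 5 fell and 5 did not pass in white cells, and 1 rose, 10 fell and 1 did not pass in brown cells (medians −0.18 and −0.95). Sox9, a factor of chondrocyte precursors, went from 935 ± 73.6 to 183 ± 3.48 in white and from 1549.9 ± 177 to 50.7 ± 6.45 in brown cells. Zfp521, a zinc-finger repressor of adipogenesis, changed by −1.81 and −3.21, and Dlk1, the shed inhibitor Pref-1, by −3.02 and −4.38. The brown adipocyte mean of Dlk1 was dim, at 31.8. The stress factor Ddit3 rose in both lines, from 1447 ± 106 to 7431 ± 1633 in white and from 926 ± 50.2 to 1892 ± 371 in brown cells.

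Cd34 (chr1:194938821-194961292) encodes a sialomucin of blood precursors, endothelium and stromal fat precursors. The signals were 25.5, 5.15 and 16.9 in white preadipocytes, 23.4, 22.2 and 17.2 in white adipocytes, 129.7, 94.1 and 106 in brown preadipocytes, and 28.8, 27.4 and 8.71 in brown adipocytes. Brown preadipocytes stood above the other 3 groups, which overlapped one another and lay under the 40th percentile on each array. Cd34 changed by −1.78 (SE 0.274, adjusted p = 0.000254) in brown cells, a fall of at least 2.79-fold with each dim array set to that percentile. In white cells the change was 0.26 (SE 0.274, adjusted p = 0.439, 95% interval −0.35 to 0.87), and the difference between lines was −2.05 (SE 0.388, adjusted p = 0.00137). Cd34 entered the test through its 3 brown preadipocyte arrays alone, the group whose height makes this contrast, and it was not tested with the filter at the 60th percentile. The size of the difference rests on dim values in the other 3 groups. Brown preadipocytes were at least 3.26-fold above white ones (2.03, SE 0.274, adjusted p = 0.000121). Between adipocytes Cd34 gave −0.02 (SE 0.274, adjusted p = 0.960).

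Since Cd34 also marks endothelial and blood cells, their markers were read. The 6 endothelial genes (Pecam1, Cdh5, Kdr, Tek, Tie1 and Emcn) were too dim to test, and their summed signal was 50.1 to 166 in white and 86.2 to 141 in brown preadipocytes, 98.2 to 102 in white and 53.5 to 133 in brown adipocytes. The leukocyte gene Ptprc had mean signals of 8.03 to 20.5. Of 4 tested blood cell markers, 1 rose, 1 fell and 2 did not pass in white cells, and 0 rose, 1 fell and 3 did not pass in brown cells. Cd68, of macrophages, rose in white cells, and Cd14 fell in both lines. The summed signal of the 7 blood markers was 666 to 753 in white and 432 to 552 in brown preadipocytes, 477 to 581 in white and 394 to 422 in brown adipocytes.

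Mme (chr3:63295211-63383713) encodes neprilysin (CD10), a zinc peptidase that cuts small peptides at the cell surface. Its signals were 1.79, 2.93 and 12.8 in white preadipocytes, 11.1, 14.8 and 11.9 in white adipocytes, 3675, 3435 and 3579 in brown preadipocytes, and 5606, 5988 and 5701 in brown adipocytes. White arrays all lay below the 40th percentile, far under the brown ones. Mme therefore entered the test through its brown arrays alone, the groups whose height makes both contrasts between the lines. The adjusted p of those contrasts is a description. Brown preadipocytes had at least 107-fold the signal of white ones (7.39, SE 0.153, adjusted p = 3.81e-10), and brown adipocytes at least 154-fold that of white adipocytes (7.66, SE 0.153, adjusted p = 1.94e-10). In brown cells Mme rose with differentiation (0.69, SE 0.153, adjusted p = 0.00284), with no overlap between the groups. A second probe set also had no overlap there, at 353 to 389.7 and 459 to 471. Its change was not called (0.31, SE 0.407, adjusted p = 0.555), nor was that of the first set with a pseudocount of 1 (adjusted p = 0.238). The SE of each fit pools the 4 groups, and the white arrays of the second set were dim, at 1.01 to 31.8. These 2 results therefore do not measure the spread of the brown arrays alone. The brown call was lost in 4 of 28 alternatives and kept in the fit of the brown arrays alone. The white change was called (0.42, SE 0.153, adjusted p = 0.0349) between dim signals whose arrays overlapped. It was lost in 14 of 28 alternatives, including leaving out white preadipocyte replicate 1 (adjusted p = 0.131) or 2 (0.120) or any 1 white adipocyte array (0.0518 to 0.104). The change did not differ between lines beyond the threshold (0.27, SE 0.216, adjusted p = 0.334, 95% interval −0.21 to 0.75). Over the alternatives this difference was −0.65 to 0.55, and it was called with a pseudocount of 64 (0.55, adjusted p = 0.000714). It rests on dim white signals and has no settled direction.

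Other surface peptidases included genes that went opposite ways in the lines. Of 9 tested, 4 rose, 1 fell and 4 did not pass in white cells, and 0 rose, 5 fell and 4 did not pass in brown cells (medians 0.46 and −0.80). Fap, the fibroblast activation protein and a relative of Dpp4, went from 13.1 ± 12.6 to 369 ± 19.3 in white cells and from 277 ± 29.9 to 35.3 ± 23.5 in brown cells. Its white preadipocyte and brown adipocyte means lay about or below the 40th percentiles, so the size of its changes is not settled. Enpep, the aminopeptidase that trims angiotensin, went from 13.3 ± 6.42 to 217 ± 35.3 and from 5412 ± 243 to 1487 ± 157, with a dim white preadipocyte group. Phex, a relative of neprilysin, changed by −3.24 and −4.45, the second to a dim brown adipocyte mean of 1.56.

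Dpp4 (chr2:62330073-62412315) encodes a serine peptidase that removes dipeptides from hormones and chemokines. Of its 4 probe sets the brightest gave 29.2, 23.2 and 10.1 in white preadipocytes, 49.9, 62.1 and 22.5 in white adipocytes, 45.0, 44.8 and 21.0 in brown preadipocytes, and 32.0, 19.0 and 33.6 in brown adipocytes. These values lay about the 40th percentile and overlapped in each comparison, and the other 3 sets had group means of 1.99 to 12.3. None of the 5 comparisons was called. The white change was 0.70 (SE 0.312, adjusted p = 0.0770), and it passed without white adipocyte replicate 3 (0.9982, adjusted p = 0.0154). The difference between lines was −0.94 (SE 0.441, adjusted p = 0.104). It passed without that array (−1.24, adjusted p = 0.0269) or without brown preadipocyte replicate 3 (−1.18, adjusted p = 0.0479).

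Pi16 (chr17:29318796-29328903), a CAP family gene of interstitial fibroblasts, had group means of 2.69 to 6.59 on its 2 probe sets and was above the 40th percentile on 0 of 12 arrays. Icam1 (chr9:21015940-21028814), the adhesion receptor that binds leukocyte integrins, had signals of 20.7, 1.32 and 2.48 in white preadipocytes, 6.88, 1.74 and 3.43 in white adipocytes, 33.4, 20.6 and 36.8 in brown preadipocytes, and 34.2, 1.51 and 23.5 in brown adipocytes. It too stayed under that level on each array, and the highest values were in the brown line. Neither gene passed the filter, so no difference between groups was tested. The arrays of Icam1 overlapped in each comparison of lines or stages. Its brown preadipocyte arrays lay above its white adipocyte arrays, a pair that differs in both line and stage.

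**Figure D3:**
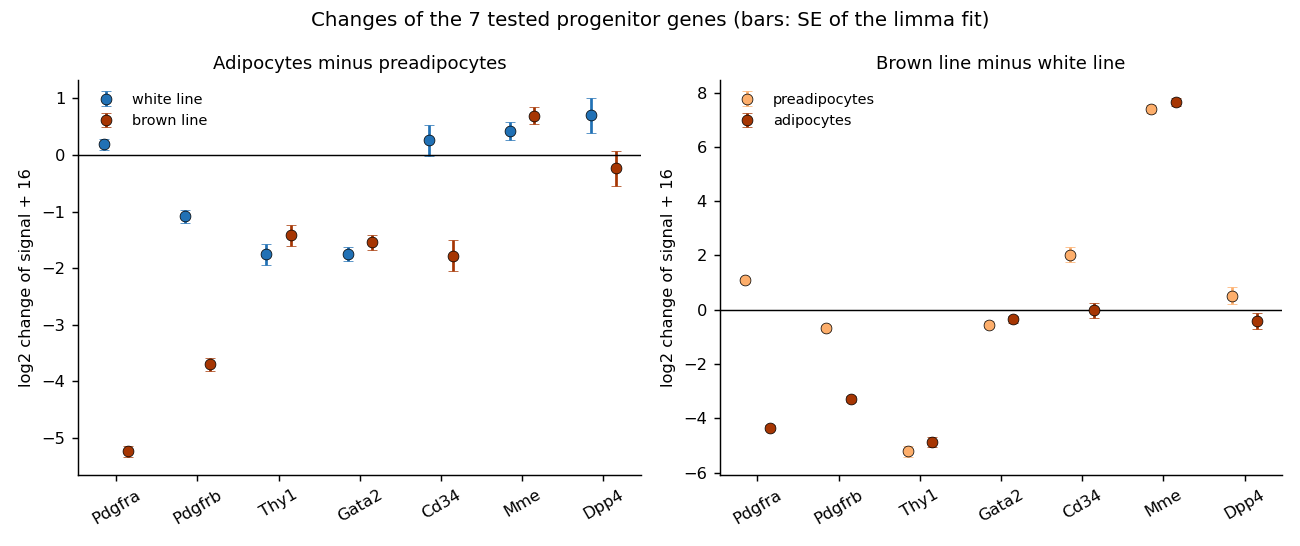
Change in log2(signal + 16) of the 7 tested genes with differentiation in each line (left) and between the lines before and after differentiation (right); points are limma estimates from 3 arrays a group and bars are their SE. Pdgfra, Pdgfrb and Cd34 have called differences between the lines' changes, Gata2 falls by −1.75 and −1.55, and Mme and Thy1 lie farthest from 0 between preadipocytes (7.39 and −5.22).

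The classes of precursor named after these markers were read from other genes of each class. Of 4 tested genes of the interstitial class, 0 rose, 3 fell and 1 did not pass in white cells, and 0 rose, 3 fell and 1 did not pass in brown cells (medians −1.18 and −2.96), and the other 4 of its 8 were too dim to test. The annexin gene Anxa3 went from 10599.7 ± 230.4 to 329.9 ± 42.6 in white and from 3629.8 ± 366 to 209 ± 3.48 in brown cells. Cd248, which encodes the stromal protein endosialin, changed by −1.80 (SE 0.321, adjusted p = 0.000611) and −4.64 (SE 0.321, adjusted p = 6.81e-07). The guidance gene Sema3c changed by −0.55 and −1.91. Each of these 3 lay above the 40th percentiles by its mean in the preadipocytes of both lines, where Pi16 was dim.

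Of 10 tested genes of the committed class, 9 rose, 1 fell and 0 did not pass in white cells, and 6 rose, 2 fell and 2 did not pass in brown cells. The list holds Pparg, Fabp4, Lpl and Cd36, which are also genes of mature fat cells. Cd36, the fatty acid transporter, changed by 9.34 and 3.83, the first from a dim white preadipocyte mean of 19.0. Ggt5, a transpeptidase, was called higher in white (0.87, adjusted p = 0.0320) and lower in brown cells (−1.56, adjusted p = 0.00144), and the white call was lost with hybridization-control scaling (adjusted p = 0.109). Of 7 tested markers of mature fat cells, 7 rose, 0 fell and 0 did not pass in white cells, and 6 rose, 0 fell and 1 did not pass in brown cells. Cidec, a lipid droplet gene, changed by 9.75 and 3.44, and the hormone gene Retn by 8.96 and 3.57. Their white preadipocyte means were dim, at 12.7 and 28.5, so the sizes of their white changes are not settled. Adiponectin (Adipoq) was already at 18695 ± 2319 in brown preadipocytes, against 31.9 ± 16.4 in white ones. The brown cells taken at day 0 thus carried signals of fat cell genes, whose part in the differences above was not tested.

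Of 6 tested genes of the CD142 class, 3 rose, 0 fell and 3 did not pass in white cells, and 2 rose, 2 fell and 2 did not pass in brown cells. F3, which encodes tissue factor, went from 3769 ± 457 to 5936 ± 127 in white cells (0.66, SE 0.112, adjusted p = 0.000434) and from 9559 ± 558 to 1017 ± 147 in brown cells (−3.22, SE 0.112, adjusted p = 5.49e-09). Mgp, the matrix Gla protein, gave −0.09 (adjusted p = 0.423) and −1.56 (adjusted p = 1.31e-07). Abcg1, a cholesterol exporter, changed by 5.07 and 2.13.

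Of 13 tested mesenchymal surface markers outside the set, 5 rose, 5 fell and 3 did not pass in white cells, and 3 rose, 6 fell and 4 did not pass in brown cells (medians −0.05 and −0.40). Vcam1, an adhesion receptor of the same superfamily as Icam1, went from 5707 ± 145 to 2438 ± 269.9 in white and from 4521 ± 984 to 119.6 ± 11.5 in brown cells, a difference of −3.82 (SE 0.199, adjusted p = 1.89e-07). Cd44, the hyaluronan receptor, changed by −2.60 and −2.15, and Cd24a, a marker of early fat precursors, by −2.07 and −3.44. The white adipocyte mean of Cd24a was dim, at 33.0. Mcam (CD146), also a mural cell marker, changed by 5.94 and 1.68, the first from a dim white preadipocyte mean of 8.66. Of 5 tested mural markers, 3 rose, 1 fell and 1 did not pass in white cells, and 3 rose, 2 fell and 0 did not pass in brown cells. The summed signal of the 7 mural genes was 228 to 304 in white preadipocytes, 2403 to 2604 in white adipocytes, 1109 to 1267 in brown preadipocytes and 1604 to 1769.7 in brown adipocytes. This sum adds unlike probe sets, and its largest terms were Mcam in white adipocytes (mean 1496) and Cspg4 in brown adipocytes (859). The pericyte gene Rgs5 fell in both lines, from 51.6 ± 13.2 to 21.9 ± 11.4 and from 71.3 ± 6.56 to 22.7 ± 9.65. The muscle filament gene Des, a mural marker, changed by 2.27 and 1.03, and the receptor gene Notch3 by 1.98 and −1.57. Of 2 tested skeletal myoblast markers, 0 rose, 0 fell and 2 did not pass in white cells, and 0 rose, 1 fell and 1 did not pass in brown cells, the fall being that of Pax3 (−0.88).

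The nearest relatives of the remaining markers were read in the same way. Of 5 tested Ly6 and uPAR family genes, 3 rose, 1 fell and 1 did not pass in white cells, and 1 rose, 2 fell and 2 did not pass in brown cells. Ly6e, a relative of Ly6a, was called higher in white cells (0.37, adjusted p = 0.00664), which was lost with hybridization-control scaling (adjusted p = 0.452), and fell in brown cells (−0.53, adjusted p = 0.000828). Plaur, the urokinase receptor, changed by −2.67 and −0.77, and Ly6h by 3.87 and 1.46. The preadipocyte means of Ly6h were dim, at 14.5 in white and 25.3 in brown cells. Of 3 tested CAP family relatives of Pi16, 0 rose, 2 fell and 1 did not pass in white cells, and 1 rose, 2 fell and 0 did not pass in brown cells. Glipr2 changed by −1.44 and −2.59, and Crispld2 by 0.03 (adjusted p = 0.920) and −2.20 (adjusted p = 2.32e-05). Crispld2 had means of 8.31 and 8.77 in white cells and 154 and 23.0 in brown cells. Brown preadipocytes carried it through the filter and make its brown fall, so its adjusted p is a description. Its white change lay between dim signals. Of 8 tested relatives and partners of Icam1, 0 rose, 4 fell and 4 did not pass in white cells, and 1 rose, 3 fell and 4 did not pass in brown cells. Ezr (ezrin) and Msn (moesin), which tie such receptors to actin, changed by −3.21 and −1.52 in white and −1.49 and −0.64 in brown cells. Icam2 was called higher in brown cells (1.12, adjusted p = 0.0456), a call lost under each of 3 other scalings (adjusted p = 0.0522 to 0.0585).

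**Figure D4:**
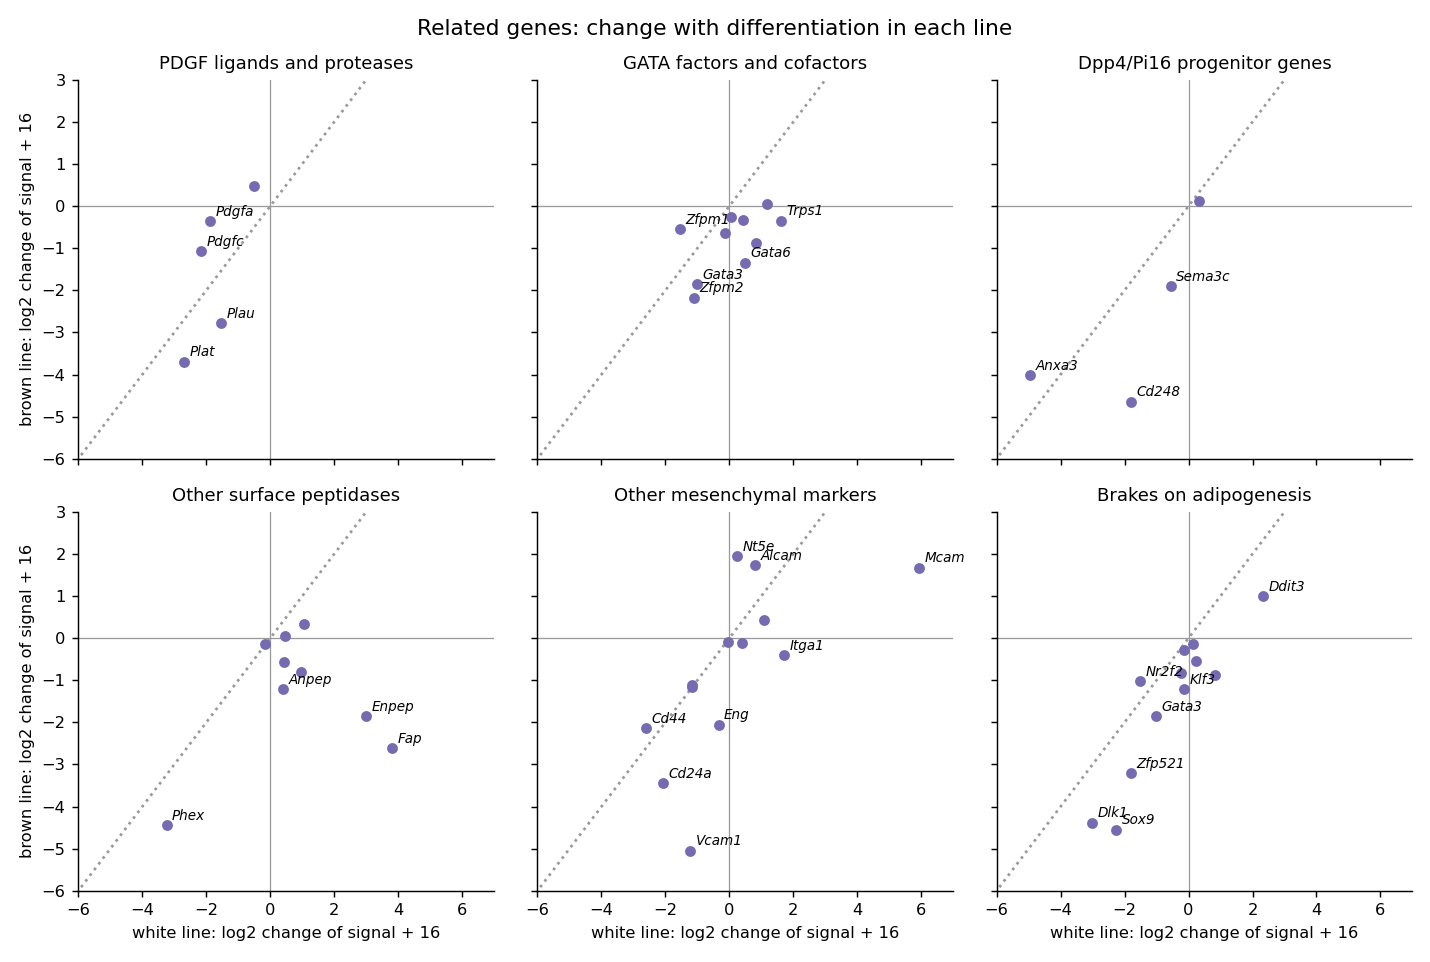
Change with differentiation in white cells (horizontal) and brown cells (vertical), in log2(signal + 16), of tested genes in 6 related lists; each point is 1 gene, the dotted line marks equal change, and genes changed by more than 1.2 in either line are named. Fap and Enpep lie where white cells rise and brown cells fall, and Plat, Anxa3, Cd44, Sox9 and Dlk1 lie where both fall.

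The genes most like each member over the 12 arrays were found by Pearson correlation of log2(signal + 16), which is a description over 4 groups of 3 arrays. For Pdgfra they were Reck, an inhibitor of matrix metalloproteases (r = 0.994), and Maged1 (0.994). Reck had mean signals of 543 and 521 in white cells and 917 and 45.3 in brown cells, before and after differentiation. For Pdgfrb they were S100a4, a calcium-binding protein of fibroblasts (0.997), and the dynein light chain Dynll1 (0.996). Thy1 was nearest to Rab11fip5 (0.996) and to the small heat shock protein gene Cryab (0.994). Gata2 was nearest to Pea15a (0.991) and Emp3 (0.988), and Emp3 averaged 7527 and 966 in white and 4412 and 548 in brown cells. Mme was nearest to Zfp518a (0.996) and to Prdm16 (0.995), the regulator of brown fat identity, whose means were 6.39 and 1.76 in white and 428 and 696 in brown cells. Cd34 was nearest to Fli1 (0.962), an ETS factor of blood and endothelium that averaged 232 in brown preadipocytes and 2.72 to 12.1 elsewhere, and to Slc26a7 (0.954). For Dpp4, whose signals were dim, the highest values were 0.897 for Ctrc and 0.894 for Qpctl.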

How the data were processed

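RNA of 12 samples was measured on Affymetrix arrays, 1 per sample. The deposited values are linear signal intensities per probe set, for which the submitters' processing notes name Affymetrix Expression Console; its version and summary method are unknown here. The mean after trimming 2% at each end was 500.003 to 500.004 on every array, so a change in total RNA per cell is hidden.

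Of 45101 probe sets, 34945 carried 1 gene symbol and were no control, 932 carried several symbols and 9211 were not listed. Gene identifiers of 34741 matched the RefSeq table of GRCm38.p6, which changed 0 symbols. The brightest probe set stood for a gene. Fits used limma 3.58.1 in R 4.3.3 (lmFit, eBayes, 8 residual and 1.81 prior degrees of freedom) on all 12 arrays, two-sided, and were tested on simulated data. Python 3.11.15 and matplotlib 3.10.9 served for tables and plots. Precision is limited by 3 arrays a group.

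The members and gene lists were chosen with earlier results of these data known. Named are all members, in each list up to 3 called genes of largest change per line and relatives of members, the 2 genes most correlated with each member, and Pparg, Cebpa and Adipoq. Other genes were named where a count was small.

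Each fit was repeated with a pseudocount of 1 or 64, with equal medians, quantile normalization, hybridization-control scaling, no filter, a 60th percentile filter, the mean of probe sets, specific probe sets alone, trended or robust moderation, fits of the arrays compared, a replicate block, an adjusted p under 0.01 and each array left out. Single probe sets, and the dimmest set in place of the brightest, were added after seeing the data.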

Additional observations from a re-analysis of the deposited data

Results flagged for a closer look

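For 3 members the change with differentiation differed between the lines by a test of that difference (limma, adjusted over 13752 genes). Line, induction mix, serum and day of harvest cannot be told apart in it. The brown change minus the white change was −5.42 (SE 0.136, adjusted p = 2.73e-09) for Pdgfra, −2.62 (SE 0.158, adjusted p = 5.05e-07) for Pdgfrb and −2.05 (SE 0.388, adjusted p = 0.00137) for Cd34. Cd34 was above the 40th percentile in brown preadipocytes alone and passed the filter through that group, so its value is a description. The 3 brown adipocyte arrays lay below the 3 brown preadipocyte arrays for each gene. The Pdgfra difference was −1.58 (adjusted p = 0.000234) with its second probe set and −3.36 (adjusted p = 0.000156) with its dimmest one.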

How the results depend on the processing

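Over 938 values of single members under alternatives, 895 kept their call and, where called, their direction, 35 lost the call, 6 gained one and 2 turned sign with a call. Many of these could not turn sign. Leaving out an array outside a comparison keeps its estimate, as do the filter, moderation, block and threshold settings. The share kept is therefore no measure of stability. Both turned values were Pdgfra in white differentiation, which went from 0.19 to −0.48 with the mean of its probe sets and to −0.9996 with the second probe set. The number of members whose change differed between lines moved from 3 to 5 with a pseudocount of 64, which added Thy1 and Mme. Leaving out single arrays gave 3 to 4 called members in white differentiation, 6 in brown differentiation, 3 to 4 for the difference between lines, 4 to 5 between adipocytes and 6 between preadipocytes. With the replicate number as a block these counts were 5, 6, 3, 5 and 6, the added call being Dpp4 in white differentiation (0.70, adjusted p = 0.0397); no other member's call changed. Over all tested genes, deviations of same-numbered arrays correlated at −0.0292 to 0.0668, and 6 of 12 arrays correlated best with their own number. The median was 0.00118 for same and 0.0019 for different numbers. These values over all genes cannot exclude a pairing for single members. In white differentiation the block lowered the SE of Thy1 from 0.188 to 0.138 and of Dpp4 from 0.312 to 0.249. That of Mme went from 0.153 to 0.154. The median change of all genes in white differentiation moved from 0.02 to −0.23 with hybridization-control scaling and to −0.09 with equal medians. Of 356 called changes of list genes, equal medians turned the sign of 2 and hybridization-control scaling and quantile normalization of 0, while 18, 24 and 12 of the calls were lost in that order. Signals near the 40th percentile limit Dpp4, Icam1, Pi16, white Mme and Cd34 and brown Thy1.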
